A study of Mus musculus with 20 samples.

Results

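N6-methyladenosine (m6A) is a methyl mark that a nuclear writer complex places on adenosines of messenger RNA, most densely in the last exon around the stop codon and along the 3′ untranslated region. Reader proteins with a YTH domain bind the mark and influence the decay, translation and localization of the transcript, which in neurons includes transcripts carried into dendrites and axons. In the mice studied here the YTH domain was fused to APOBEC1, a cytidine deaminase, so that cytidines beside an m6A were edited to uridines and read as T in the sequenced RNA.

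The sites described here were edited in both cortex and cerebellum and were not listed in hippocampus. They were selected on the 3 deposited site lists, 1 per brain region, as positions with the same chromosome, nucleotide and strand in the cortex and cerebellum lists and with no entry at that nucleotide in the hippocampus list. There were 1685 such sites among 25978 listed in any region, or 6.49%. They lay in 892 genes, and 235 of the sites (13.9%) lay in 173 genes without a single hippocampal site, while the other 1450 (86.1%) lay in 719 genes that did have hippocampal sites at other nucleotides.

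The 20 bulk libraries were made from poly(A) RNA of whole cortex, hippocampus and cerebellum of mice with a tamoxifen-inducible APOBEC1-YTH transgene or with APOBEC1-YTHmut, the background control for C-to-U edits. APOBEC1-YTH was represented by 4 libraries in each region, with the same 4 animal numbers throughout. APOBEC1-YTHmut had 3 libraries from cortex, 3 from cerebellum and 2 from hippocampus, with 3 animal numbers in all. Tamoxifen was injected intraperitoneally into both genotypes (5 daily doses of 20 mg/kg), and tissue was taken 7 days later, so the drug was common to all groups. No source used here gives the promoter that drives the transgene, or the age and sex of the animals.

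Each list gave 1 value per site, taken to be the edited fraction of reads at that cytidine, which is printed as a percent and called the editing level. There was no value per library, no read depth and no APOBEC1-YTHmut value, so levels have no replicate error and no difference between regions was tested. The hippocampus list was intermediate in size, with 13461 sites in 2547 genes against 17878 sites in 3163 genes in cortex and 11391 sites in 2228 genes in cerebellum, and the lowest level in each list was 1%. A nucleotide missing from the hippocampus list was not called there: whether it was unmethylated, edited under the limit of calling, or in a transcript with too few reads cannot be told apart, nor can fewer cells of a type and less RNA per cell. The number of background libraries differed between hippocampus and the other regions, and its part in the absences was not tested.

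Marker genes of the regions were compared with the labels by their numbers of sites. Hippocampal neuron markers had 44 sites in the hippocampus list, 10 in cortex and 1 in cerebellum, and cortical excitatory neuron markers had 61 in cortex, 22 in hippocampus and 3 in cerebellum. Purkinje cell markers had 342 cerebellar sites against 19 cortical and 11 hippocampal ones. Cerebellar granule cell markers did not follow the label, with 6 sites in cerebellum, 14 in hippocampus and 26 in cortex, and microglial and macrophage markers had 1 cortical site in all.

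The nucleotide context could be read where a listed site fell within a RefSeq window around an annotated gene start (GRCm38.p6, the assembly of mm10), which held 63 sites of all lists. In all 63 of 63 the listed base was a C preceded by an A, so that each edited C had an adenosine directly before it, whereas 18.1% of all C in these windows follow an A. One of the sites absent from hippocampus was among them, in Cdr1os, the RNA antisense to Cdr1, with 3.45% in cortex and 2.68% in cerebellum at position 61185561 of chromosome X, plus strand. It is shown with the nearby cerebellum-only site at 61185616, edited at 1.75%, because the surrounding sequence recurs at both places; capitals mark the A and the edited C.

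Cdr1os site in cortex and cerebellum, chrX:61185551-61185571 (+): aaatccatgACttcccaaaaa

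Cdr1os site in cerebellum alone, chrX:61185606-61185626 (+): aaatccacgACttcccaaaaa

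The sequences were identical at 20 of 21 positions. They differed close to the marked A, in the base before its preceding G, a T in the first and a C in the second. The first was listed in 2 regions and the second in 1, and the part of this base was not tested. The first site lay 3 nt beyond the annotated span of Cdr1 (61183246 to 61185558, minus strand) and outside the RefSeq span of Cdr1os (61116378 to 61139460, plus strand). A further Cdr1os site at 61183303, with 3.03% in cortex and 5.97% in cerebellum, lay opposite Cdr1, and no site of Cdr1os was listed in hippocampus.

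Absence from hippocampus was the middle case among the absences from a single list. Sites missing from that list alone numbered 4437 for cerebellum, 1685 for hippocampus and 746 for cortex, beside 4942 listed in all regions. The lists were of unequal size, as given above. Of 6627 sites shared by cortex and cerebellum, 25.4% were missing from the hippocampus list. At least 1 of these missing sites was held by 54.5% of the 1636 genes with a site shared by cortex and cerebellum. Genes without any hippocampal site made up 10.6% of these 1636 genes. The missing sites were spread thinly: 575 genes had 1 each, among them 143 of the 173 genes without hippocampal sites (82.7%) and 432 of the 719 others (60.1%). At the other end, 68 genes with 5 or more held 504 of the sites (29.9%). The sites lay on 20 chromosomes. RefSeq names were found for 886 of the 892 genes, of which 877 were protein coding and 6 were long non-coding RNAs.

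The gene classes differed in how many sites they carried. A gene without hippocampal sites had a median of 1 site in cortex and 1 in cerebellum. A gene with other hippocampal sites had a median of 7 cortical, 5 hippocampal and 6 cerebellar sites, and a median of 4 shared by cortex and cerebellum. In 307 of these 719 genes (42.7%) hippocampus had fewer sites than either other region. That count was 46 of 744 (6.18%) in genes whose sites shared by cortex and cerebellum were all listed in hippocampus. This contrast follows in part from the selection and is given as a description.

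Most of the sites were edited at a low level. The median was 2.58% in cortex (quartiles 1.71 and 4.17) and 3.31% in cerebellum (quartiles 2.11 and 5.41), against 4% and 3.99% at the 4942 sites listed in all regions, where the hippocampal median was 3.92%. The 235 sites of genes without hippocampal sites had higher medians, 4.69% in cortex and 5.26% in cerebellum, than the 1450 sites of other genes, at 2.46% and 3.16%. Sites just inside the hippocampus list give the level of comparison: 47 sites of all regions had a hippocampal level under 1.1%, with medians of 1.81% in cortex and 2.22% in cerebellum, and 300 were under 1.5%, with medians of 2.04% and 2.43%.

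**Figure D1:**
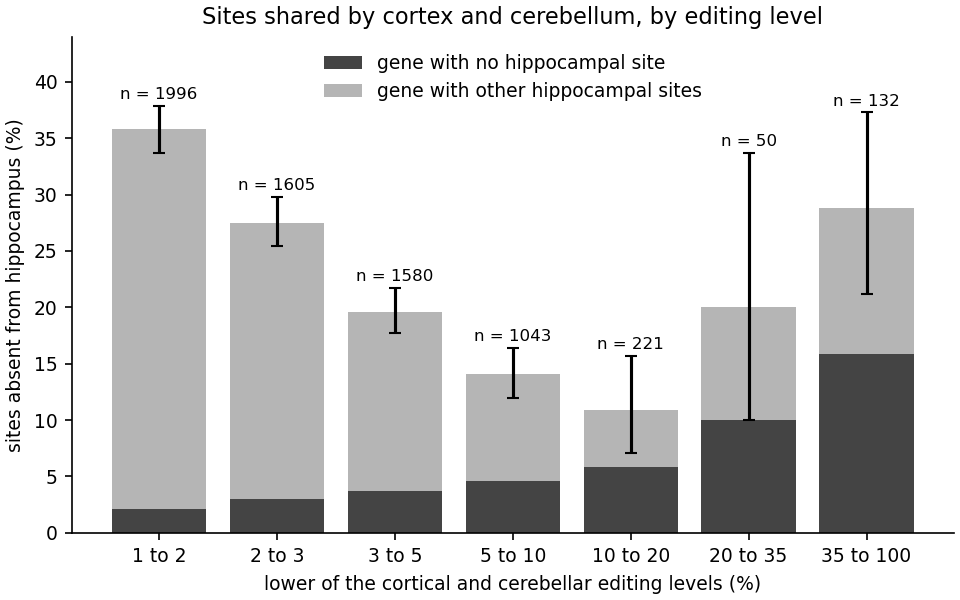
Percent of the sites shared by cortex and cerebellum that were absent from the hippocampus list, by the lower of the cortical and cerebellar levels; n is the number of shared sites, whiskers are exact binomial 95% intervals for the whole bar that cover site counts only, and dark bars are sites of genes with no hippocampal site. The whole bar is 35.8% at 1 to 2%, 10.9% at 10 to 20% and 28.8% at 35% or more, while the dark bar goes from 2.1% to 15.9%.

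The share of shared sites absent from hippocampus went down and then up again with the editing level, as the plot of absence by level shows. Among 1996 sites whose lower level was between 1 and 2%, 714 were absent, or 35.8% (exact binomial 95% interval 33.7 to 37.9). The share was 27.5% at 2 to 3%, 19.6% at 3 to 5%, 14.1% at 5 to 10% and 10.9% (7.08 to 15.7, 24 of 221) at 10 to 20%. It was 20% (10 to 33.7) among the 50 sites at 20 to 35% and 28.8% (21.2 to 37.3, 38 of 132) at 35% or more. The part contributed by genes without hippocampal sites was higher in every successive bin, from 2.1% of all shared sites in the lowest through 5.88% at 10 to 20% to 15.9% at 35% or more. The intervals treat sites as independent, which sites of 1 gene are not, and they do not cover animals or read depth.

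As deposited, levels at these sites leaned towards cerebellum. Of the 1685 sites, 1063 (63.1%, 60.7 to 65.4) were higher in cerebellum than in cortex, against 2425 of the 4942 sites of all regions (49.1%, 47.7 to 50.5). The median log2 ratio of cerebellar to cortical level was 0.28 (SD over sites 0.89), against -0.02 (SD 0.94) at sites of all regions. When the lists were scaled to the same median level, which moves every ratio by -0.21, 53.2% were higher in cerebellum, and 39.9% of sites of all regions. In genes without hippocampal sites 141 of 235 sites (60%) were higher in cerebellum as deposited, with a median log2 ratio of 0.15, and after scaling the direction turned, to 46.4% and -0.06. In the other genes 922 of 1450 (63.6%) were higher, with a median of 0.30, and the scaled values were 54.3% and 0.09. The sites were selected by absence from hippocampus, which shared 4437 sites with cortex alone and 746 with cerebellum alone. The contrast with sites of all regions can therefore follow in part from the selection, which was not tested, and is a description.

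**Figure D2:**
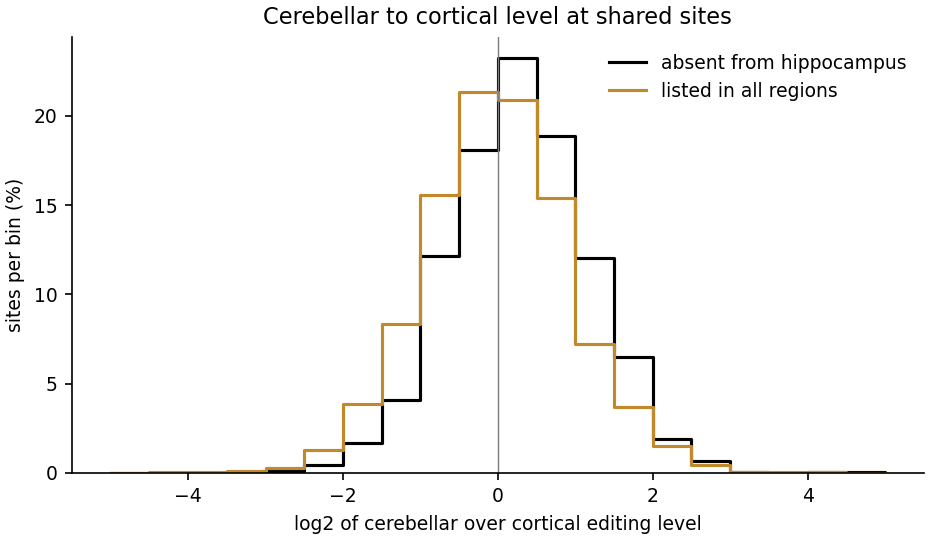
Distribution of log2 of the cerebellar over the cortical editing level for the 1685 sites absent from hippocampus (black) and the 4942 sites listed in all regions (orange), in percent of each set per bin. The black outline lies to the right of the orange one, with medians of 0.28 and -0.02.

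As deposited, large differences between the regions were mostly in the same direction. Cerebellum was at least 2-fold above cortex at 358 sites (21.2%), where sites of all regions gave 13.0%. It was at least 2-fold below cortex at 110 sites (6.53%), where sites of all regions gave 13.9%. These counts were not repeated on scaled lists, where every ratio moves towards cortex, and the limit from the selection applies to them too. The scatter of the levels also shows the 50 sites at 35% or more in at least 1 region, 42 of which (84%) had levels within 1.5-fold of each other.

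**Figure D3:**
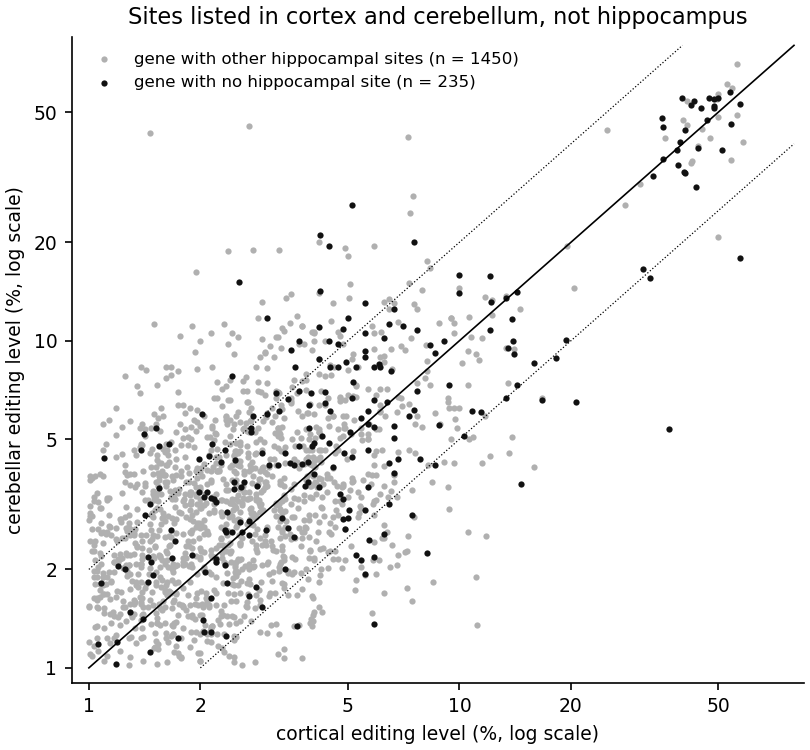
Cerebellar against cortical editing level (both percent, log scales) of the 1685 sites; black points are the 235 sites of genes with no hippocampal site, grey points the other 1450, the solid line marks equal levels and the dotted lines 2-fold differences. A separate cloud of points lies at 35% or more in both regions, and more of it is black than in the low range.

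The largest cerebellar excess below 35% was in Atrnl1, which encodes an attractin-like membrane protein. One of its sites had 1.94% in cortex and 16.2% in cerebellum. All 9 of its sites absent from hippocampus were higher in cerebellum, with medians of 2.67% and 13.2%. Next in order were Cdk14, a cyclin-dependent kinase, with 1.5% and 11.3%, and Rgs8, a regulator of G-protein signalling found in Purkinje cells, with 2.78% and 18.9%. Slc30a9, a zinc transporter family member, had 1.25% and 7.79%. Its other absent sites had 1.17 and 5.5% in cortex and 2.22 and 3.74% in cerebellum, so the direction was not the same at each. Kcnma1, the pore subunit of the BK potassium channel, had 1.38% and 8.33%. Mark1, a microtubule affinity-regulating kinase without hippocampal sites, had 2.54% and 15.2%.

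The largest cortical excess was in Zbtb18, a transcriptional repressor of the developing cortex, with 11.2% in cortex and 1.35% in cerebellum. Rims3, a small RIM protein of the presynaptic active zone, had 11.1% and 1.90%. Eloc, elongin C, had 11.8% and 2.53%. Reln, the secreted glycoprotein reelin, had 7.46% and 1.60%, and Kcnc1, the Kv3.1 potassium channel of fast-spiking neurons, had 8.47% and 1.83%. In Zbtb18 and Kcnc1 the sites of all regions were ordered the same way, with medians of 7.60% in cortex and 2.84% in cerebellum for Zbtb18 and of 7.79% and 2.77% for Kcnc1. The other Zbtb18 site absent from hippocampus was ordered the other way, with 1.43% in cortex and 1.81% in cerebellum.

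Genes without any hippocampal site were led by Syt2, which encodes synaptotagmin 2, a calcium sensor for fast transmitter release. All of its 19 cortical sites were also cerebellar sites, and none of its 44 cerebellar sites was listed in hippocampus. The 19 shared sites lay between 134747752 and 134752481 on the plus strand of chromosome 1, from 5397 to 668 nt before the annotated 3′ end. Their cortical levels ran from 5.41 to 57.1% with a median of 11.4%, and their cerebellar levels from 1.36 to 17.9% with a median of 6.59%. Cortex was higher at 17 of the 19, against the direction of the whole set. The 25 Syt2 sites of cerebellum alone had a lower median, 3.18%. No cortical Syt2 level was below 5.41%, although the cortex list reached down to 1% and cerebellar Syt2 levels to 1.04%. The cortical excess at 17 of 19 therefore covers only sites that passed into the cortex list at such levels. Read depth is unknown and its part was not tested.

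**Figure D4:**
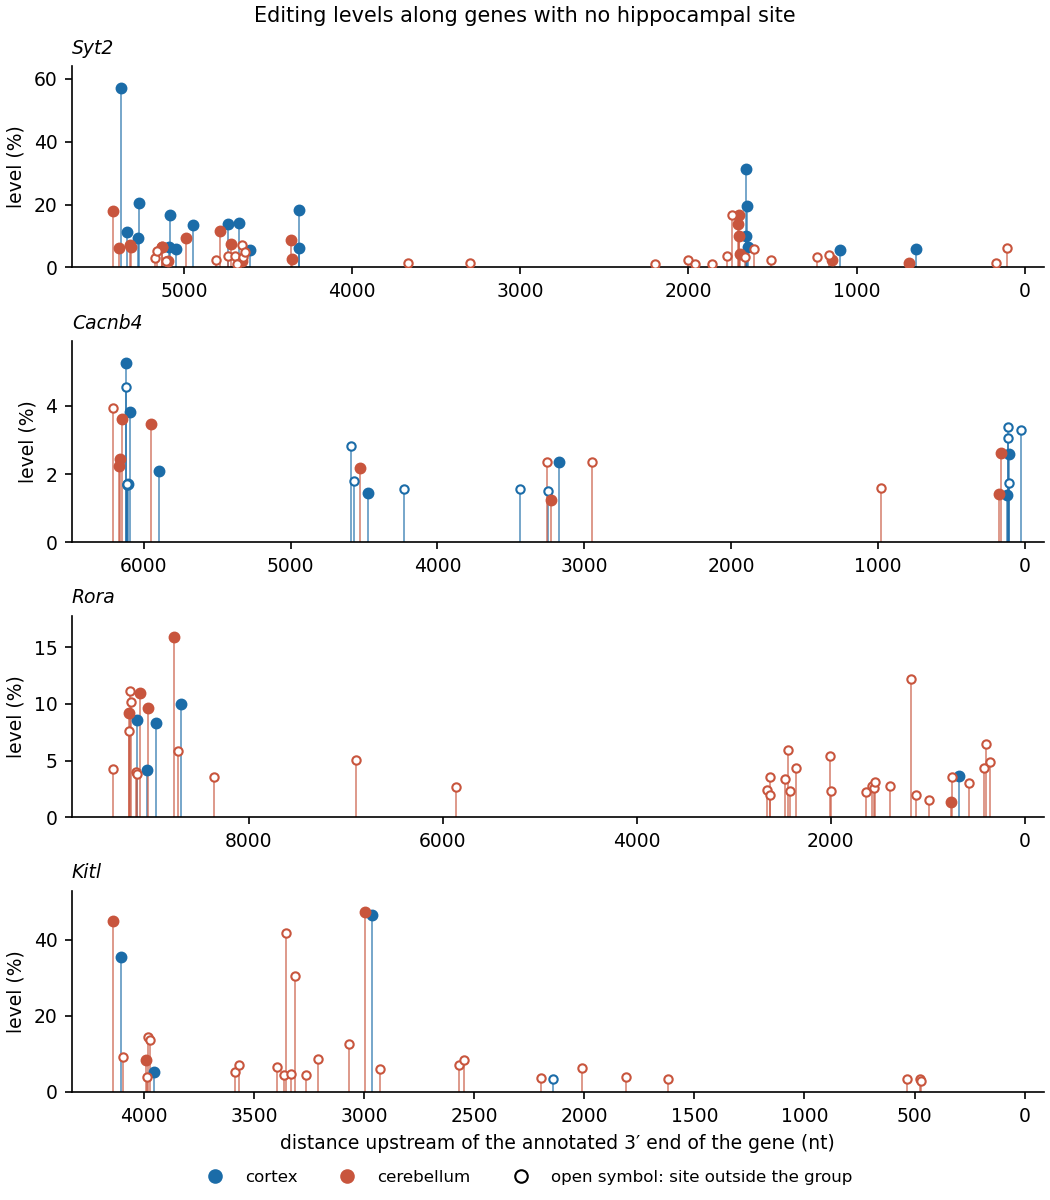
Editing level (percent) against distance upstream of the annotated 3′ end (nt) for every listed site of Syt2, Cacnb4, Rora and Kitl, none of which had a hippocampal site; filled symbols are sites of both regions, open symbols sites of 1 region, and symbols of the same site are drawn slightly apart. In Syt2 and Rora no open symbol is cortical, while Cacnb4 has 12 open cortical and 4 open cerebellar sites.

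Cacnb4, an auxiliary subunit of voltage-gated calcium channels, came second with 8 sites, all at low levels. They had 1.40 to 5.26% in cortex (median 2.21) and 1.25 to 3.61% in cerebellum (median 2.33). Cacnb4 also had 12 sites in cortex alone and 4 in cerebellum alone, so cortex was here the region with more sites. Its nearest hippocampal sites belonged to other genes, with a median distance of 31196 nt.

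Rora, a nuclear receptor needed for Purkinje cell development, had 5 sites, all those listed in cortex. At 69379051, 69379160, 69379248, 69379509 and 69387525 of chromosome 9 the cortical levels were 8.57, 4.17, 8.33, 10 and 3.64%, in that order. The cerebellar levels at the same Rora sites were 9.18, 11.0, 9.68, 15.9 and 1.34%. Cerebellum was higher at 4 of 5, and it had 32 more Rora sites of its own with a median of 3.57%. Few cortical and many cerebellar sites were also listed for Esrrg and Calb1. Esrrg, an orphan nuclear receptor, shared its 2 cortical sites (5.88 and 7.69% in cortex) with a cerebellar list of 25. Calb1, the calcium-binding protein calbindin, shared its only cortical site, at 1.1%, with a cerebellar list of 45, where the site had 4.38%.

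Kitl, the ligand of the Kit receptor, had 3 sites, with 35.5, 5.26 and 46.5% in cortex and 45.0, 8.33 and 47.2% in cerebellum, in order along chromosome 10. The outer Kitl sites were therefore at 35% or more in both regions and the middle one was not. Gria4, an AMPA receptor subunit, had 3 sites between 4478654 and 4478706 of chromosome 9, with 14.7, 14.3 and 6.67% in cortex and 3.64, 14.1 and 3.95% in cerebellum. The Gria4 sites lay 60761 to 60813 nt before the annotated 3′ end of the gene. Cacng2, known as stargazin and an AMPA receptor auxiliary subunit, had 4 sites at 1.08 to 3.91% in cortex and 1.29 to 4.26% in cerebellum.

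Zdhhc14, a palmitoyltransferase, had 2.44, 4.84 and 4.44% in cortex and 7.79, 10.8 and 19.5% in cerebellum, higher in cerebellum at 3 of 3 sites. Stk39, a kinase that regulates chloride cotransporters, had 1.52, 10.8 and 4.94% in cortex and 5.43, 6.12 and 8.62% in cerebellum, and its 3 sites were the whole of its entries in either list. Otud6b, a deubiquitinase, had 2 sites at 3.49 and 7.55% in cortex, with a cerebellar range of 4.23 to 20.0%. Ncoa2, a nuclear receptor coactivator, had 2 at 3.57 and 12.2% in cortex and 4.17 and 13.2% in cerebellum, and Tmem25 had 2 at 2.27 and 40.4% in cortex.

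Below 35%, the sites with the highest level in both regions in these genes were in Dgkq, a diacylglycerol kinase, with 33.3% in cortex and 32.0% in cerebellum, Syt2, with 31.2% and 16.6%, and Tlcd4, with 32.7% and 15.5%. Gria4 followed with 14.3% and 14.1%, Emb, the cell adhesion protein embigin, with 13.3% and 13.5%, and Ncoa2 with 12.2% and 13.2%. The Dgkq site was that gene's single entry in either list. Both levels were at 10% or more at 39 of the 235 sites (16.6%), and at 6.25% once sites at 35% or more in either region were left out. The same share among sites of genes with other hippocampal sites was 2.28%.

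Genes with other hippocampal sites carried most of the larger clusters, although among them only Scn1a had more sites absent from hippocampus than Syt2. Scn1a, the sodium channel Nav1.1, had 21 sites absent from hippocampus among its 46 sites shared by cortex and cerebellum, the most of any gene. Their levels were 1.47 to 10.6% in cortex (median 2.97) and 2.06 to 12.9% in cerebellum (median 4.76), and cerebellum was higher at 17 of 21. At the 25 Scn1a sites of all regions the medians were 4.95% (cortex), 4.71% (hippocampus) and 7.66% (cerebellum). Hippocampus was below both other regions at 12 of the 25. Unc80, a subunit of the NALCN sodium leak channel complex, had 14 of 26 shared sites absent from hippocampus, and Tmem184c had 14 of 23.

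Other genes with many such sites came from several cellular functions. Frrs1l, an AMPA receptor-associated protein, had 12 absent of 40 shared sites and 50 hippocampal sites in all. Hapln4, a link protein of perineuronal nets, had 10 of 41, and Map1b, a microtubule-associated protein of axons, had 10 of 54. Nova1, a neuronal splicing factor, had 10 of 16, with medians of 6.09% in cortex and 4.07% in cerebellum and only 2 of 10 higher in cerebellum. Rmnd5a, a subunit of a ubiquitin ligase, had 10 of 15 and was higher in cerebellum at 1 of 10.

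In a few genes most shared sites were missing from hippocampus although some were present. Among genes with at least 10 shared sites the share was highest in Arhgap5, a GTPase-activating protein, with 13 of 15 (86.7%), and in Ank1, the membrane-cytoskeleton adaptor ankyrin 1, with 9 of 11 (81.8%). Maneal followed with 11 of 14 (78.6%), Ttll7, a tubulin polyglutamylase, with 75%, Iqsec1, an exchange factor for Arf6, with 11 of 15 (73.3%), and Lgi2, a secreted leucine-rich repeat protein, with 7 of 10 (70%). Arhgap5 levels were 1.61 to 4.90% in cortex and 1.57 to 10.6% in cerebellum. The first lay at 52516451 and the last at 52567530 of chromosome 12, which is 55527 and 4448 nt before the annotated 3′ end.

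Ank1 and Maneal showed opposite directions. At the 9 Ank1 sites cortex had 3.33 to 9.76% (median 4.92) and cerebellum 1.66 to 6.2% (median 2.61), with cerebellum higher at 1. At the 11 Maneal sites cortex had 1.74 to 4.35% (median 3.08) and cerebellum 2.83 to 13.9% (median 8.06), with cerebellum higher at 10. The 2 Ank1 sites that hippocampus did share had a hippocampal median of 6.64%, against 6.45% in cortex and 4.58% in cerebellum. For the 3 shared Maneal sites the medians were 6.67% in hippocampus, 4.92% in cortex and 9.09% in cerebellum.

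**Figure D5:**
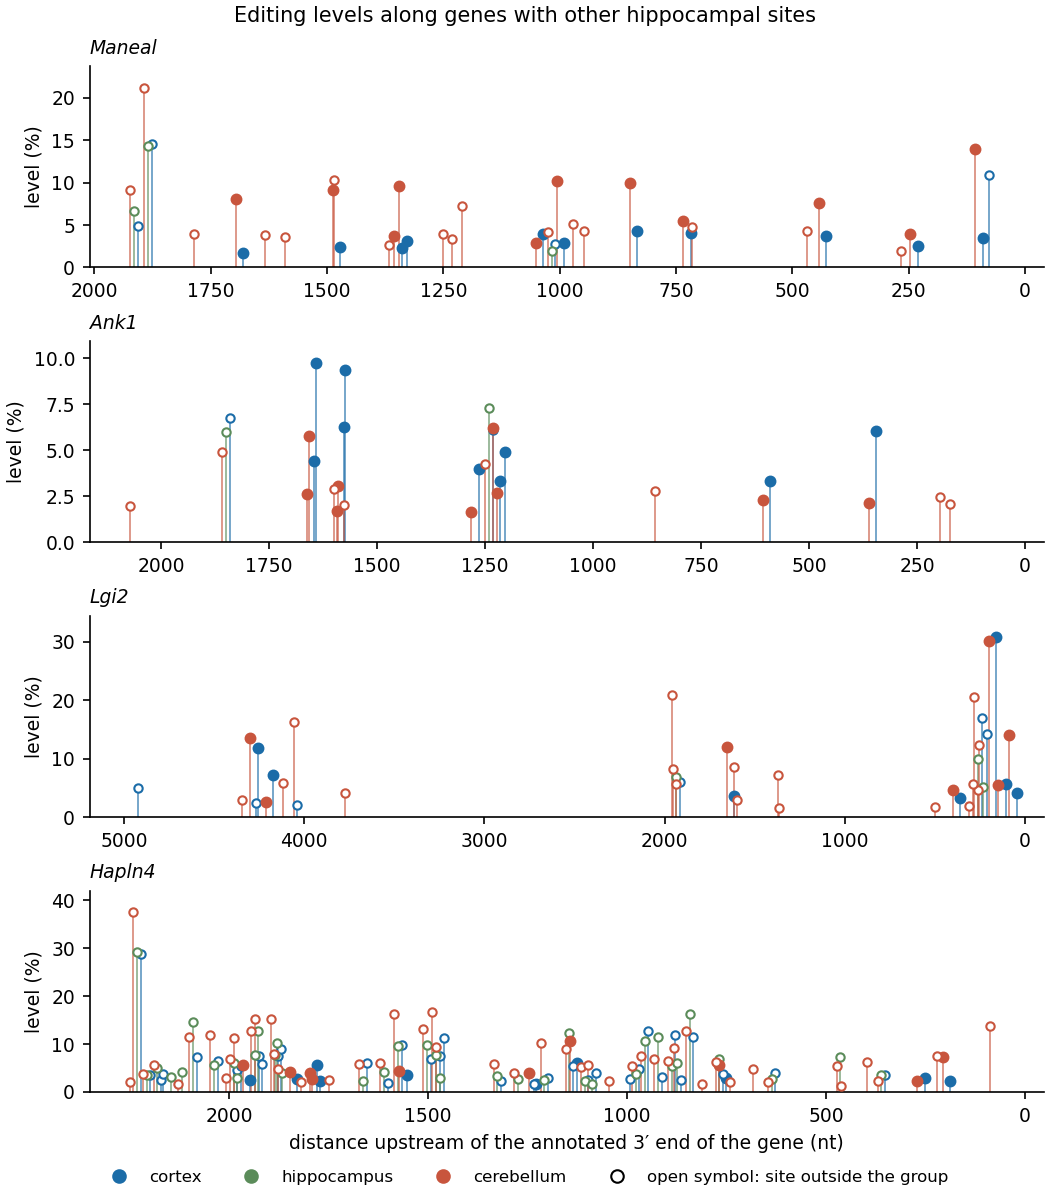
Editing level (percent) against distance upstream of the annotated 3′ end (nt) for every listed site of Maneal, Ank1, Lgi2 and Hapln4; filled symbols are sites of cortex and cerebellum that hippocampus lacked, open symbols all other listed sites, and symbols of the same site are drawn slightly apart. Green hippocampal symbols are few in Maneal, Ank1 and Lgi2 (3, 2 and 3 sites) and many in Hapln4 (36 sites), where filled symbols sit between them at low levels.

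The highest level that hippocampus lacked below 35% in such genes was in Lgi2, with 30.8% in cortex and 30.2% in cerebellum at position 52533699 of chromosome 5, 50 nt from a hippocampal Lgi2 site. Zc3h11a, a zinc finger protein, had 28.1% and 26.0%, and Ppm1l, a protein phosphatase, 19.6% and 19.5%. Nova1 had 20.4% and 14.5% at a site 21 nt from a hippocampal one, Ptpn4, a tyrosine phosphatase, 14.6% and 12.5%, and Erlin2, a protein of the endoplasmic reticulum membrane, 13.3% and 13.7%.

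Within a gene, the sites that hippocampus lacked were mostly its weaker ones. Listing depends on level, so this order follows in part from the selection and is a description. Sites missing from another region were not compared in this way. In 566 genes with both kinds of site, the median over genes in cortex was 2.4% at sites absent from hippocampus and 4% at sites of all regions, and it was lower at absent sites in 448 genes (79.2%). In cerebellum the medians were 2.99% and 4.4%, lower in 436 genes (77%). Hippocampal levels at the sites of all regions were also compared among genes with at least 5 such sites. Each gene was given its median log2 ratio of hippocampus to the geometric mean of cortex and cerebellum over these sites. The median over genes was 0.17 in 102 genes with no absent site and 0.06 in 119 genes with 1 or 2. It was -0.10 in 46 genes with 3 to 5 and -0.05 in 29 genes with 6 or more. The value of the gene was negative in 33.3, 42, 63 and 62.1% of these genes, in that order. These genes were grouped by the number of sites that hippocampus lacked. Because listing depends on level, the order of the groups can also follow in part from the selection and is a description.

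Many of the sites lay beside a site that hippocampus did have. In genes with hippocampal sites the median distance to the nearest one on the strand was 58.5 nt. It was within 10 nt for 13.7%, within 50 nt for 46.3%, within 200 nt for 74.2% and within 1000 nt for 93.2%. Sites of cortex alone in such genes had a median of 101 nt and 35% within 50 nt, and sites of cerebellum alone 151 nt and 27.9%. Sites of all regions lay closer to their nearest other hippocampal site, with a median of 27 nt and 65.7% within 50 nt. In genes without hippocampal sites the median distance was 285466 nt, with 2 of 235 within 1000 nt and 10 within 10000 nt. Of the whole group, 297 sites (17.6%) had another site of the group within 50 nt.

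Position along the gene was described by the distance to the annotated 3′ end. The 1646 sites inside an annotated gene span lay a median of 1466.5 nt before its 3′ end, against 1388.5 nt for sites of all regions, and the medians were 1499 nt for genes without hippocampal sites and 1463 nt for the others. More than 5000 nt separated the site from the gene end at 12.3% (10.7 to 14) and at 10% (9.2 to 10.9) of sites of all regions. These are distances on the genome that include introns. Exon, intron and untranslated region were not analysed here.

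Sites edited at 35% or more in both regions stood apart from the rest. There were 38 in 37 genes, with 35.2 to 58.3% in cortex (median 46.9) and 35.5 to 70% in cerebellum (median 48.2). Of these sites 21 (55.3%) were in genes without hippocampal sites. Among the 21 were 13 that were the only listed site of their gene, which places the gene in that class by definition. One of the 38 (2.63%, exact 95% interval 0.0666 to 13.8) had any listed site within 50 nt, against 66.2% (63.8 to 68.5) of the other 1647 sites. More than 5000 nt from the gene end lay 13 of 37 (35.1%, 20.2 to 52.5), against 11.7% of the others. The 94 sites of all regions at 35% or more in cortex and cerebellum had the same features, with 5.32% near another site, 46.2% beyond 5000 nt and a hippocampal median of 47%. The calling background at these sites was not analysed here, and whether they mark m6A was not tested.

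The highest of them were in Mapkbp1, a scaffold of the JNK pathway, with 56.1% in cortex and 70% in cerebellum, and in Timp3, an inhibitor of metalloproteinases, with 52.9% and 60.8%. The other Timp3 site, listed everywhere, had 3.53% in cortex, 4.12% in hippocampus and 7.5% in cerebellum. Gtpbp1, a GTP-binding protein, had 54.5% and 59.2%. Wdfy3, an autophagy adaptor, had 58.3% and 40.5%. Wdr11 had 53.7% and 57.5%, and Arid4a, a chromatin-associated protein, 57.1% and 53.1%. The Wdr11 and Arid4a sites were the single entries of those genes in either list.

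The absent share of the ion channel and receptor lists was above the 25.4% over all genes, and that of the astrocyte and oligodendrocyte marker lists was below it. These are counts of sites, many of them from the same genes, with no test. Over all genes, 54.5% of the 1636 with a shared site held at least 1 absent site. A gene with more shared sites has more chances to hold one, so counts of genes per list are descriptions too. The gene lists were chosen with earlier results of these data known, so their shares are descriptions. Among 22 voltage-gated sodium and calcium channel genes, 7 had shared sites and 6 of these had sites absent from hippocampus, 40 of 83 sites or 48.2%, and 3 had no hippocampal site. Without Scn1a the share was 51.4%. Besides Scn1a and Cacnb4 they included Scn8a, the sodium channel Nav1.6, with 5 sites (medians 1.53% in cortex and 3.91% in cerebellum) and Cacna1a, the pore subunit of P/Q-type calcium channels, with 3 (1.53% and 1.37%).

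Potassium channel genes held sites in 13 of 17 genes (76.5%, against 54.5% over all genes), 32 of 98 shared sites or 32.7%. Kcna1 and Kcna2, subunits of axonal Kv1 channels, had 5 sites each of 8 shared, at 1.68 to 4.12% and 1.14 to 2.83% in cortex and at 1.08 to 3.70% and 1.19 to 3.41% in cerebellum. Kcnj10, a potassium channel of astrocytes and oligodendrocytes, had 5 of 33. Kcnk1, a leak channel, had 3 of 4.

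Genes of GABA receptors and of AMPA receptors were among the carriers. GABA and glycine receptor genes had 24 of 61 shared sites absent from hippocampus (39.3%), in 6 of 9 genes. The GABA-A receptor subunit Gabrb2 had 6 sites, and the GABA-B receptor subunit Gabbr2 had 6, with 1.02 to 1.82% in cortex and 2.58 to 6.02% in cerebellum. AMPA, NMDA and kainate receptor genes had 33 of 105 (31.4%), in 6 of 7 genes. The carriers were Gria1, Gria2, Gria3, Gria4 and the auxiliary genes Frrs1l and Cacng2, and none was an NMDA or kainate receptor subunit. Frrs1l, named above, held the most of these sites. Gria2 and Gria3, AMPA receptor subunits, had 6 and 5, with medians of 1.77% and 1.93% in cortex and 3.07% and 3.49% in cerebellum. Gria4 and Cacng2 were the 2 of this list without hippocampal sites.

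Marker genes of inhibitory interneurons had 25 of 47 shared sites absent from hippocampus (53.2%), of which 19 were those of Syt2. Without Syt2 the share was 21.4%. The others were in Slc32a1, the vesicular GABA transporter, with 3, in Kcnc1 with 2 and in Gad2, a GABA-synthesizing enzyme, with 1 at 10.8% in cortex and 10.3% in cerebellum. Purkinje cell markers had 8 of 11 (72.7%), or 50% without Rora, in Rora, Rgs8, Calb1 and Itpr1, the inositol trisphosphate receptor, whose site had 1.43% in cortex and 8.15% in cerebellum. At most 19 of their 342 cerebellar sites could be shared, since cortex listed 19. The part of Purkinje cell and interneuron content in the absences was not tested.

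Synaptic vesicle and release genes had 28 of 101 shared sites absent (27.7%), and 19 of the 28 were all the shared sites of Syt2. The median absent share per gene was 0% in this list, against 15.3% over all genes. Beyond Rims3 the carriers included Unc13a, which encodes the vesicle priming factor Munc13-1, with 40.1% in cortex and 47.2% in cerebellum. Slc17a6, the vesicular glutamate transporter VGLUT2, had 6.67% and 5.06% and no hippocampal site. Synaptic adhesion and scaffold genes had 11 of 70 (15.7%), led by Shank2, a postsynaptic scaffold, with 3. Neurofilament and axonal cytoskeleton genes had 39 of 248 (15.7%). Among these, Myo5a, a vesicle motor, had 8 of 42 shared sites absent, and at all 8 cerebellum was higher, with medians of 4.31% against 2.10% in cortex. Nefm, the medium neurofilament subunit, had 4 of 6, all higher in cerebellum.

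Small GTPase regulator genes had 32 of 63 shared sites absent (50.8%), or 39.6% without Arhgap5. Most of the absent sites outside Arhgap5 were in Iqsec1, also named above for its high absent share. The share without both genes was not computed. Arhgap35, like Arhgap5 a GTPase-activating protein, had 3 of 5 and Srgap3 had 2 of 15. Genes of G-protein signalling regulators and phospholipase C had 13 of 40 (32.5%), 9 of them in Rgs7bp, an anchor of such regulators, where cerebellum was higher at 9 of 9 (medians 4% against 2.19% in cortex). RNA-binding and splicing genes had 13 of 57 (22.8%), 10 of them in Nova1. Calcium pump, exchanger and calcium-binding genes had 20 of 170 (11.8%), led by Atp2b2, a plasma membrane calcium pump, with 7 of 39.

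Astrocyte markers had 12 of 97 shared sites absent from hippocampus (12.4%), in 3 of 11 genes. Aqp4, the water channel of astrocyte endfeet, had 6 of 15, at 1.52 to 10.6% in cortex and 1.83 to 9.35% in cerebellum. Slc4a4, a bicarbonate cotransporter, had 3 of 3, and Slc1a2, the main astrocytic glutamate transporter, 3 of 43. Oligodendrocyte lineage markers had 6 of 47 (12.8%), 4 in Ptprz1 and 2 in Mal. Vascular and choroid plexus markers had 5 of 12, of which 4 were in Rgs5, a pericyte gene, and 1 in Slco1a4, at 50% in cortex and 56.8% in cerebellum. Proton pump, lysosome and endosome genes had 16 of 85 (18.8%), and ubiquitin ligase and deubiquitinase genes 8 of 48 (16.7%), in 8 genes with 1 each.

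Genes of the m6A machinery had 1 of 11 shared sites absent, in the demethylase gene Fto, at 1.51% in cortex and 2.34% in cerebellum. The other shared Fto site was listed in all regions at 41.9% in cortex, 42.7% in hippocampus and 41.0% in cerebellum. Chromatin regulator genes had 2 of 5, in Kmt2a, a histone methyltransferase, and Arid1a, a chromatin remodelling subunit. The Kmt2a site had 42.3% in cortex and 34.9% in cerebellum. A second Kmt2a site was listed in all regions, with 64.7% in cortex, 44.8% in cerebellum and 4% in hippocampus. Cerebellar granule cell markers had 1 of 2, in Reln. Hippocampal neuron markers and cortical excitatory neuron markers had 1 shared site each and immediate early genes had 3, none of them absent from hippocampus.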

How the data were processed

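Bulk poly(A) RNA-seq libraries were made with a directional kit from 900 ng of total RNA, per the labels' protocols. STAR 2.7.5 and the build mm10 are named in the submitters' processing notes. No source used here names the site caller, its thresholds or depth minimum, or how libraries were combined. The authors deposited 1 list per region without a header, with 6 columns: chromosome, start, end, gene, a value and strand. The value that the authors deposited is a fraction (0 to 1); it is printed as percent and taken to be the edited share of reads, which the lists do not state. The end column is the 1-based position of the edited C where sequence could be read.

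Sites were matched on chromosome, end and strand, and genes on the symbol in the lists. Depth is unknown, and each region has 1 combined value per site, so no test was made and no p-value is given. Binomial intervals are exact (Clopper-Pearson, 95%) and cover counts of sites only. Of 3731 genes, 3693 matched the GRCm38.p6 RefSeq table, which gave spans and 3′ ends. 39 sites lay outside their gene's span and have no distance to its end. The matching was checked on simulated data.

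The members, the 25 gene lists and the limit of 35% were chosen with earlier results of these data known. Genes were named by a rule. It took, in each gene class, the 12 genes with most sites and the 6 sites with the highest lower level below 35%. It also took the 6 largest ratios in each direction among sites below 35%, 1 site a gene, the 6 highest sites at 35% or more, the 6 genes with the highest absent share among those with at least 10 shared sites, and up to 4 genes per list. Some genes that the rule names are left out of the text. Cdr1os was named for its sequence, after its values were seen. Alternatives were matching within 10 or 50 nt, minimum levels of 2, 5 and 10%, leaving out sites at 35% or more, scaling to the same median, 1 value a gene, at least 2 sites per gene, and classing genes by position. Software was Python 3.11.15 with pandas 2.3.3, numpy 2.4.6, matplotlib 3.10.9 and scipy 1.17.1.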

Additional observations from a re-analysis of the deposited data

How the results depend on the processing

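The number of sites rested most on how absence was defined and on the minimum level. Of 1685 sites, 1486 had no hippocampal site within 10 nt and 1013 none within 50 nt. With a minimum level in both regions the number was 971 at 2%, 219 at 5% and 72 at 10%, since these settings keep fewer sites, and it was 1635 without sites at 35% or more. The 173 genes without hippocampal sites became 30 with at least 2 sites and 70 with a level of at least 5%, and 177 when classed by position. The 39.9% of sites within 50 nt of a hippocampal site was 46.3% in genes with hippocampal sites. With 1 value a gene, or without sites at 35% or more, median levels were 2.6 or 2.53% in cortex and 3.39 or 3.25% in cerebellum. The lean towards cerebellum depended on scaling: the median log2 ratio was 0.28 as deposited and 0.07 with lists scaled to the same median, and the share higher in cerebellum 63.1% and 53.2%. In genes without hippocampal sites scaling turned the direction, from 0.15 to -0.06 and from 60% to 46.4%. The gene lists held 109 genes with a site, 88 with no hippocampal site within 50 nt and 61 with at least 2 sites.

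Chosen after seeing the data were the runs without Syt2, Scn1a, Arhgap5 or Rora, the share at 10% without sites at 35% or more, the scaled ratios at sites of all regions and by gene class, and bins by the mean of both levels, in which 30% of sites at 35% or more were absent. No paired analysis was possible because each region has 1 combined value per site and no value per animal, and for the same reason no replicate could be left out.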
